A study of Drosophila melanogaster with 58 samples.

Results

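The Rab, Arl and Arf small GTPases of the fly were taken here as the gene symbols made of Rab with a number or an X number, Arl with a number, or Arf with a number and the letter F. This rule found 35 of the 12453 genes in the deposited table. They were 28 Rab GTPases, 6 Arl GTPases and Rab3GAP1, which is no GTPase but a subunit of the complex that makes Rab3 and other Rabs hydrolyse their GTP. No symbol had the Arf form, so the Arf GTPases of the fly (Arf1, Arf4, Arf6) stand outside the rule and are given separately at the end.

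Small GTPases of these families switch between a GTP-bound form on a membrane and a GDP-bound form in the cytosol, and each marks a step of membrane traffic by recruiting tethers, motors and coats. Rabs direct vesicles to their targets, and Arf and Arl proteins recruit coats and tethers, above all at the Golgi. A growing axon needs new membrane delivered along its length, while a mature axon turns the same machinery to synaptic vesicles, dense core vesicles and endosome recycling.

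The study profiled the neurons of the fly mushroom body, the brain's centre for olfactory memory. Alpha-beta neurons were collected during their initial axon outgrowth, and gamma neurons, which prune their larval axons and then grow adult ones, during axon regrowth. Brains of flies reared at 25 °C, males and females taken at random, were dissociated, and 1000 GFP-positive cells per library were sorted, after which RNA was amplified from oligo-dT primers by Smart-seq2. The labels name neither the driver that expressed GFP nor any genotype, treatment or pooling of animals. There were 30 alpha-beta and 28 gamma libraries. Alpha-beta neurons had 5, 5, 6, 4 and 5 libraries at 18, 21, 24, 27 and 30 h after pupa formation and 5 from adults 3 to 5 days old. Gamma neurons had 5, 5, 5, 3 and 5 libraries at the same stages and 5 from adults.

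Pupal libraries held between 5340159 and 27242758 gene counts, and adult libraries between 4403619 and 17690132. Levels are counts scaled to the library's total (CPM), and 3 counts correspond to 0.111 to 0.693 CPM. Tests used edgeR's quasi-likelihood method on the counts of all 58 libraries, with Benjamini-Hochberg adjustment over the 10072 genes with enough counts, and a gene was called at an adjusted p under 0.05. The labels do not say whether libraries of a group came from separate animals or sorts, so p-values measure only the spread between these libraries. In sorted pools, fewer cells expressing a gene and less of its RNA per cell cannot be told apart.

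All 11 mushroom body markers checked (among them ey, dac, prt and Fas2) and all 6 neuron markers had counts in both cell types. The summed neuron markers, which include the synaptic genes nSyb, Syt1 and brp, lay between 3348 and 5251 CPM at 30 h in alpha-beta neurons. In adult alpha-beta neurons they lay between 9975 and 15960 CPM. In gamma neurons the sums were between 2154 and 4571 and between 5387 and 12135 CPM. From 30 h to adults the mean of elav went from 725 to 607 CPM in alpha-beta and from 650 to 466 in gamma neurons. The means of the other neuron markers rose, with Rdl going from 1266 to 5207 and from 815 to 3101 CPM. The 8 glial markers summed to 454 to 698 CPM at 30 h and 816 to 2802 in adult alpha-beta neurons, and to 471 to 878 and 506 to 3532 in gamma neurons. The glial identity gene repo was at 0 in adult alpha-beta libraries and at 2.73 CPM in the mean of adult gamma libraries. From 30 h to adults the mean of the glial enzyme gene Gs2 went from 33.2 to 994 CPM in alpha-beta and from 109.9 to 849 in gamma neurons, that of Gat from 0.735 to 41.2 and from 1.56 to 66.4, and that of alrm from 9.98 to 50.1 and from 54.8 to 143. The mean of nrv2 went from 565 to 340 and from 466 to 691 CPM. That of Eaat1 went from 8.12 to 22.8 and from 16.3 to 41.9 CPM. That of moody went from 0.139 to 6.65 and from 2.03 to 21.4 CPM. In adults 4 of the 5 neuroblast markers were at 0. The hemocyte and fat body markers reached 8.05 CPM at most in an adult library, and the muscle markers 196. The part of other cells in the adult results below was not tested. The adult gamma library replicate 5 stood apart from the other adults, with the lowest normalization factor among them (0.743), and the gamma calls against 30 h are also given without it.

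The summed level of the 34 GTPase genes was 5928 ± 598 CPM (SD, n = 48) in pupal libraries, ranging from 4690 to 7650, and 8551 ± 1186 CPM (SD, n = 10) in adult libraries, ranging from 6917 to 10511. Rab3, Rab26 and Rab27, 3 Rabs of exocytosis, summed to 359 ± 106 CPM (SD, n = 48) in pupal and 3255 ± 551 CPM (SD, n = 10) in adult libraries. The other 31 genes summed to 5569 ± 641 CPM (SD, n = 48) and 5297 ± 831 CPM (SD, n = 10), so the higher adult sum lay in these 3 genes. To compare genes with each other, levels were divided by the length of each gene's annotated exons, giving CPM per kb. Over the 12 group means Arl4, whose mammalian relatives bring Arf exchange factors to the plasma membrane, had the highest level, at 453 CPM per kb. Rab2, a Rab of the Golgi and of lysosome fusion, followed at 428, then RabX4 at 263, Rab14 at 250.1, Rab6 at 249.8, Rab4 at 222, Rab11 at 217 and Rab7 at 183. At the low end were Rab23 at 0.481 CPM per kb, RabX2 at 0.0568 and Rab9E at 0.0442. Of the 35 genes 33 had enough counts to be tested. RabX2 had 28 counts in the adult gamma library replicate 2 and none in the other libraries, and Rab9E had counts in 3 libraries.

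The order of the levels per length among the 35 genes differed between pupae and adults. Rab27, a Rab of secretory vesicle exocytosis, went from rank 24 at 24.1 CPM per kb in pupal neurons to rank 1 in adults, at 1046 in alpha-beta and 638 in gamma neurons. Rab3, the Rab of synaptic vesicles and the active zone, went from rank 16 to rank 3, and Rab26, which sits on synaptic vesicles in mammals, from rank 30 to rank 15. Rab6, a Rab of Golgi traffic, moved the other way, from rank 3 to rank 14. Arl4 held rank 2 in both, Rab2 went from rank 1 to rank 4 and Rab14 from rank 6 to rank 5. In CPM not divided by length, Rab3 had a mean of 1773 in adult gamma neurons, above every Rab27 library of that group. In adult alpha-beta neurons Rab27 was the higher of these, at a mean of 1636 CPM.

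Expressed as a share of the summed CPM per kb of the 34 GTPase genes, Rab3, Rab26 and Rab27 together held 3.27% ± 1.02 (SD, n = 25) in pupal and 31.01% ± 2.40 (SD, n = 5) in adult alpha-beta neurons. In gamma neurons the same share was 3.05% ± 1.10 (SD, n = 23) and 26.2% ± 3.82 (SD, n = 5). These 3 genes were put together after their values were seen, so the shares are a description and carry no test. Rab27 alone went from 0.743% to 21.3% in alpha-beta and from 0.601% to 13.96% in gamma neurons. Over the same step the share of Rab6 went from 8.64% to 1.80% in alpha-beta and from 7.19% to 2.30% in gamma neurons.

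**Figure D1:**
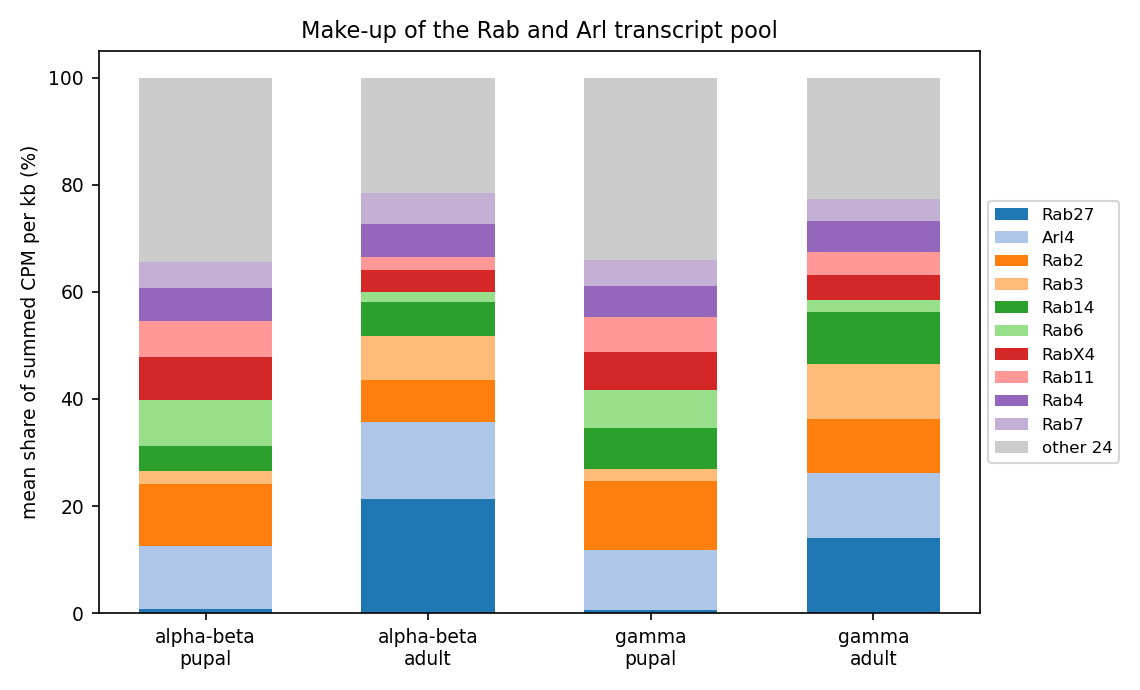
Mean share of each gene in the summed CPM per kb of exon of the 34 GTPase genes (vertical axis, %), for pupal and adult libraries of each cell type, with 10 genes in colour and the other 24 in grey. The Rab27 segment is 0.743% in pupal and 21.3% in adult alpha-beta neurons, while the Rab6 segment is 8.64% and 1.80%.

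The first question was which of these genes differ between neurons at 30 h, when axons extend, and adult neurons. In alpha-beta neurons 8 of the 33 tested members were called, 4 higher (Rab3, Rab26, Rab27, Arl4) and 4 lower (Rab6, Rab9, Rab10, Rab11) in adults, while 12.5% of all genes tested were called in this comparison. In gamma neurons 4 were called, with Rab3, Rab26 and Rab27 higher and Rab6 lower, against 10.2% of all genes. The median log2 fold change of the members was -0.17 in alpha-beta neurons, beside -0.16 over all genes, and -0.04 in gamma neurons, beside -0.07. Against the mean of all 5 pupal stages, 11 members were called in alpha-beta neurons, 6 higher and 5 lower, with 26.4% of all genes called. In gamma neurons 5 were called, 3 higher and 2 lower, with 22.2% of all genes called. The 2 pupal references share the adult libraries.

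Rab27 (FBgn0025382) had the largest log2 fold change of the 3 exocytic Rabs that rose. Its levels in the 5 alpha-beta libraries at 30 h were 43.1, 41.4, 24.6, 38.3 and 46.1 CPM, and in the 5 adult libraries 2057, 2078, 771, 1434 and 1839 CPM. In gamma neurons they were 2.93, 52.6, 57.9, 5.62 and 0 CPM at 30 h and 1250.03, 933, 611, 566 and 1632 CPM in adults. Every adult library stood above every library at 30 h, in both cell types, and the pupal libraries with the highest level reached 91.2 CPM. The alpha-beta log2 fold change was 5.40 (SE 1.03, edgeR adjusted p = 0.000116), or 42.2-fold. The gamma log2 fold change was 5.39 (SE 1.03, adjusted p = 0.000161), and 6.03 without gamma 30 h replicate 3.

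Rab3 (FBgn0005586) was already well expressed in pupae. Its 5 alpha-beta libraries at 30 h had 242, 231, 481, 328 and 316 CPM, and its adult libraries 1273, 782, 1925, 2252 and 729 CPM. The gamma libraries had 289.6, 300.6, 414, 264 and 238 CPM at 30 h and 2153, 1574, 2102, 2423 and 612 CPM in adults. Groups did not overlap in either cell type, although adult levels differed several-fold among replicates. In alpha-beta neurons Rab3 rose 4.36-fold, which is 2.12 on the log2 scale (SE 0.40, edgeR adjusted p = 9.67e-05). In gamma neurons it rose 5.89-fold, or 2.56 (SE 0.41, adjusted p = 6.26e-06). The lowest adult gamma value came from replicate 5, and without that library the log2 fold change was 2.77.

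Rab26 (FBgn0086913) was low in pupae. At 30 h it had 51.8, 19.7, 20.9, 14.8 and 48.01 CPM in alpha-beta neurons, and in adults 769, 262, 242, 251 and 109 CPM. In gamma neurons it had 37.3, 15.02, 33.1, 3.32 and 12.5 CPM at 30 h and 491, 303, 211, 485 and 429 CPM in adults. Again no adult library fell within the range of the 30 h libraries. Rab26 rose by 3.40 on the log2 scale (SE 0.70, edgeR adjusted p = 0.000372) in the alpha-beta cells. The rise was 4.25 (SE 0.73, adjusted p = 2.86e-05) in the gamma cells. Without alpha-beta adult replicate 1, the highest of its group, the alpha-beta value was 2.77 against 30 h, and 3.38 in place of 3.99 against the pupal mean.

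These calls of Rab3, Rab26 and Rab27 were kept in each fit without 1 library and under every other setting tried. In both cell types each gene was higher in adults in 5 of 5 pairs of adult and 30 h libraries from the same set of library numbers. Because the groups did not overlap, this outcome was fixed for the 3 genes and adds no support. Against the mean of the pupal stages their log2 fold changes in alpha-beta neurons were 2.26, 3.99 and 5.34, and in gamma neurons 2.55, 4.14 and 4.93. Rab3GAP1 (adjusted p = 0.797 in alpha-beta and 0.212 in gamma neurons, by edgeR) did not pass the test.

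**Figure D2:**
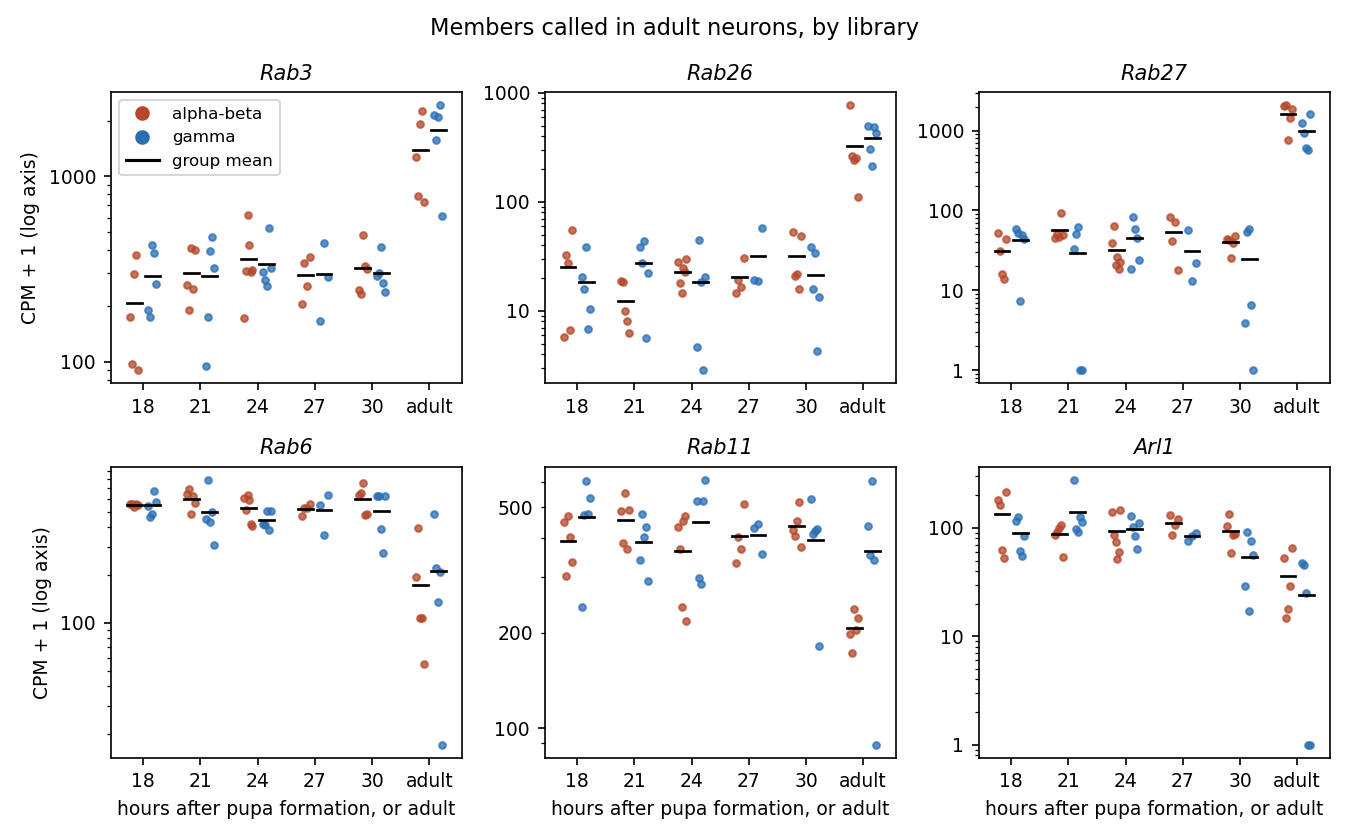
CPM + 1 per library on log axes for 6 members over the 5 pupal stages (hours after pupa formation) and adults; points are libraries, red for alpha-beta and blue for gamma neurons, and black bars are group means of the CPM values. Rab3, Rab26 and Rab27 lie higher in adults, and Rab6 and Arl1 lie lower, with the adult gamma library replicate 5 as the lowest point of Rab11.

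Among the Rabs of the Golgi and the recycling endosome, Rab6 and Rab11 were lower in adult alpha-beta neurons. Rab6 (FBgn0015797) had 631, 654, 756, 473 and 484 CPM in alpha-beta neurons at 30 h and 193, 394, 106, 107 and 54.02 CPM in adults, without overlap. In gamma neurons it had 625, 622, 386, 274 and 624 CPM at 30 h and 479, 221, 135, 207 and 16.1 CPM in adults, where replicate 1 lay among the values at 30 h. Rab6 changed by -1.81 on the log2 scale in alpha-beta neurons (SE 0.39, edgeR adjusted p = 0.000619). Its gamma log2 fold change was -1.26 (SE 0.38, adjusted p = 0.0247). The gamma call at 30 h was lost without gamma 30 h replicate 1 (adjusted p = 0.0569), 2 (0.0565) or 5 (0.0518), and without gamma adult replicate 3 (0.0599). It was also lost when only the 2 groups compared were fitted (0.329). Set against the mean of the pupal stages, the gamma log2 fold change was -1.24 (adjusted p = 0.00341), and this call was kept in each fit without 1 library.

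Rab11 (FBgn0015790), the Rab of recycling endosomes, had 423, 405, 453, 519 and 375 CPM in alpha-beta neurons at 30 h and 198, 172, 238, 204 and 223 CPM in adults. The alpha-beta groups did not overlap, and the adult values were close together. In gamma neurons Rab11 had 532, 411, 419.7, 427 and 180.3 CPM at 30 h and 434, 351, 604, 339 and 87.6 CPM in adults, which overlapped widely. The log2 fold change was -1.07 (SE 0.29, edgeR adjusted p = 0.0089) in alpha-beta neurons. In gamma neurons it was -0.12, with a 95% interval from -0.70 to 0.47.

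Rab10, which serves exocytosis and, in C. elegans, dense core vesicles, was scarce in all groups. In alpha-beta neurons at 30 h it had 21.6, 12.1, 0.127, 0.405 and 6.86 CPM, and in adults 0.293, 0.243, 0.234, 0.676 and 0 CPM. The alpha-beta ranges overlapped. Rab10 changed by -4.75 on the log2 scale (SE 1.59, edgeR adjusted p = 0.0371), and the call disappeared without alpha-beta 30 h replicate 1 (adjusted p = 0.088) or 2 (0.0575), and without alpha-beta adult replicate 1 (0.0666), 2 (0.0702), 3 (0.0655) or 5 (0.0762). It was also lost in limma-voom, with the replicate block and with the library set as a factor, with adjusted p up to 0.0952, and without alpha-beta 30 h replicate 1 the estimate was -4.04. The log2 fold change against the mean of the pupal stages was -5.13 (adjusted p = 0.0084) and was kept in those fits. In gamma neurons Rab10 had 0.788, 4.19, 0.712, 1.42 and 0.169 CPM at 30 h and 0.609, 0.193, 0.571, 0.0637 and 28.7 CPM in adults, and it was not called there.

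Arl1, which recruits golgins to the trans-Golgi, was low in adults of both cell types. In alpha-beta neurons it had 104, 135, 57.2, 85.9 and 86.3 CPM at 30 h and 51.8, 13.9, 16.7, 28.3 and 63.7 CPM in adults. In gamma neurons it had 27.8, 91.4, 16.3, 74.3 and 54.9 CPM at 30 h and 46.1, 44.2, 24.0, 0 and 0 CPM in adults. The ranges overlapped in both cell types, and edgeR called Arl1 against the mean of the pupal stages in gamma neurons (log2 fold change -1.94, SE 0.63, edgeR adjusted p = 0.0198). That call was lost when only the gamma groups compared were fitted (adjusted p = 0.093). In alpha-beta neurons the same comparison gave -1.55 (adjusted p = 0.0525), and there Arl1 was called by DESeq2, with the library set as a factor and with the compared groups alone.

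Rab39, a Rab of lysosomal traffic, had 202, 164, 72.2, 82.2 and 234 CPM in alpha-beta neurons at 30 h and 119, 62.6, 103, 43.2 and 49.6 CPM in adults. The gamma libraries had 113, 202, 115.04, 159 and 383 CPM at 30 h and 114, 100.3, 58.6, 102 and 148 CPM in adults. The groups overlapped. Compared with the mean of the pupal stages, Rab39 was lower in adult alpha-beta neurons (log2 fold change -1.12, SE 0.30, edgeR adjusted p = 0.00321), a call that limma-voom did not make (adjusted p = 0.118). Against 30 h the log2 fold changes were -0.999 (adjusted p = 0.054) in alpha-beta and -0.90 (adjusted p = 0.0895) in gamma neurons. DESeq2 and the fit with the library set as a factor called Rab39 against 30 h in both cell types, and the stricter filter on low counts did so in alpha-beta neurons. Rab8, a Rab of transport from the Golgi to the plasma membrane, and Rab30 had log2 fold changes between -1.26 and -1.05 in both cell types, against 30 h, with adjusted p from 0.249 to 0.386. Rab8 was called by limma-voom in gamma neurons against 30 h and the pupal mean, and with the compared groups alone in alpha-beta neurons against the pupal mean.

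Rab7, the Rab of late endosomes, had 265, 198, 316, 246 and 392 CPM in alpha-beta neurons at 30 h and 428, 474, 426, 359 and 655 CPM in adults. The gamma values were 183, 349, 249, 290.2 and 457 CPM at 30 h and 395, 404, 358, 409.6 and 53.99 CPM in adults. Only adult replicate 4 of the alpha-beta libraries lay within the range at 30 h, while the gamma groups overlapped. Rab7 was called against the mean of the pupal stages in alpha-beta neurons (log2 fold change 0.76, SE 0.25, edgeR adjusted p = 0.0201). The call was lost without alpha-beta adult replicate 5 (0.59, adjusted p = 0.122). Against 30 h the alpha-beta log2 fold change was 0.72 (adjusted p = 0.149).

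Rab9, which in mammals carries receptors from late endosomes back to the Golgi, was absent from the adult alpha-beta counts. It had 56.01, 24.0, 4.75, 22.2 and 26.9 CPM in alpha-beta neurons at 30 h and 0 counts in the 5 adult libraries. Set against 3 counts per adult library, the level was at least 68.5-fold lower in adults (edgeR adjusted p = 0.0045). In gamma neurons Rab9 had 0, 23.7, 10.1, 0 and 16.1 CPM at 30 h and 0, 31.3, 0, 0 and 17.9 CPM in adults, so counts came and went between replicates of a group.

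Rab14, a Rab of endosomes and phagosomes, had 412, 359.5, 317, 284 and 434 CPM in alpha-beta neurons at 30 h and 967, 1028, 401, 343 and 243 CPM in adults. The gamma libraries gave 402, 595, 460.1, 419 and 1026 CPM at 30 h and 1147, 872, 626, 598 and 910.3 CPM in adults. The groups overlapped in both cell types. Rab14 was higher in adult alpha-beta neurons than in the mean of the pupal stages (log2 fold change 0.99, SE 0.25, edgeR adjusted p = 0.00182). In adult gamma neurons the same comparison gave 0.66 (adjusted p = 0.0577), and it was called by DESeq2, by limma-voom, with the replicate block, with the library set as a factor and with the compared groups alone.

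Other Rabs of the endosome and of the early secretory pathway were not called against 30 h. Rab2 ranged from 490 to 1178 CPM with a median of 726 in pupal libraries, and from 442 to 1180 CPM with a median of 663 in adults. Its log2 fold change against 30 h was -0.18 (95% interval -0.60 to 0.23) in alpha-beta and -0.03 (-0.45 to 0.38) in gamma neurons. Rab5, the Rab of early endosomes, gave -0.02 (-0.48 to 0.44) and 0.10 (-0.36 to 0.56). Rab1, of transport from the ER to the Golgi, gave 0.10 (-0.46 to 0.66) and -0.24 (-0.80 to 0.32), although 41.1% of its annotated exon length overlaps an antisense RNA whose reads may be counted with it. Rab4, of fast recycling, gave 0.52 (adjusted p = 0.18) and 0.37 (adjusted p = 0.408).

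Of the 6 Arl genes, Arl4 (FBgn0039889) was called higher in adult alpha-beta neurons. It had 521, 377, 428, 376 and 508 CPM at 30 h and 1066, 1060.3, 419.9, 467 and 904 CPM in adults, so adult replicates 3 and 4 lay within the 30 h range. The log2 fold change was 0.83 (SE 0.29, edgeR adjusted p = 0.048), and the call disappeared without any of the 5 alpha-beta libraries at 30 h and without alpha-beta adult replicate 1, 2 or 5, with adjusted p from 0.0575 to 0.133. It was also lost in limma-voom, with no filter on low counts and with the compared groups alone, with adjusted p up to 0.103. Against the mean of the pupal stages the log2 fold change was 0.79 (SE 0.21, edgeR adjusted p = 0.00303), and this call was kept in those fits. In gamma neurons Arl4 had 389, 485, 360.04, 271 and 481 CPM at 30 h and 557, 607, 557, 590 and 704 CPM in adults, without overlap, but edgeR did not call it (0.60, adjusted p = 0.157). With the library set as a factor it was called in gamma neurons against 30 h and against the pupal mean.

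Arl8, which links lysosomes and presynaptic cargo to motors, had log2 fold changes of -0.03 (95% interval -0.84 to 0.78) in alpha-beta and -0.04 (-0.85 to 0.78) in gamma neurons. Arl2, a tubulin folding factor, and Arl5 were not called in any comparison. Arl6, a partner of the ciliary BBSome coat, had counts in 2 of the 5 alpha-beta libraries at 30 h, at 9.69 and 12.7 CPM, and 1 count in 1 adult alpha-beta library. DESeq2 called Arl6 against 30 h in alpha-beta neurons, and edgeR did not. The remaining tested members, Rab18, Rab19, Rab21, Rab32, Rab35, Rab40, RabX1, RabX4 and RabX6, were not called by edgeR in adults against 30 h or the pupal mean. limma-voom called Rab32 in gamma adults against 30 h, where it was lower in adults. Its mean in gamma neurons at 30 h was 150 CPM, the highest of the 12 groups. In 5 of 5 pairs from the same set the adult gamma library was lower, by -8.49 to -2.48 in log2 (CPM + 1). RabX6 shares 36.2% and Arl2 23.9% of its annotated exon length with a neighbouring gene.

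**Figure D3:**
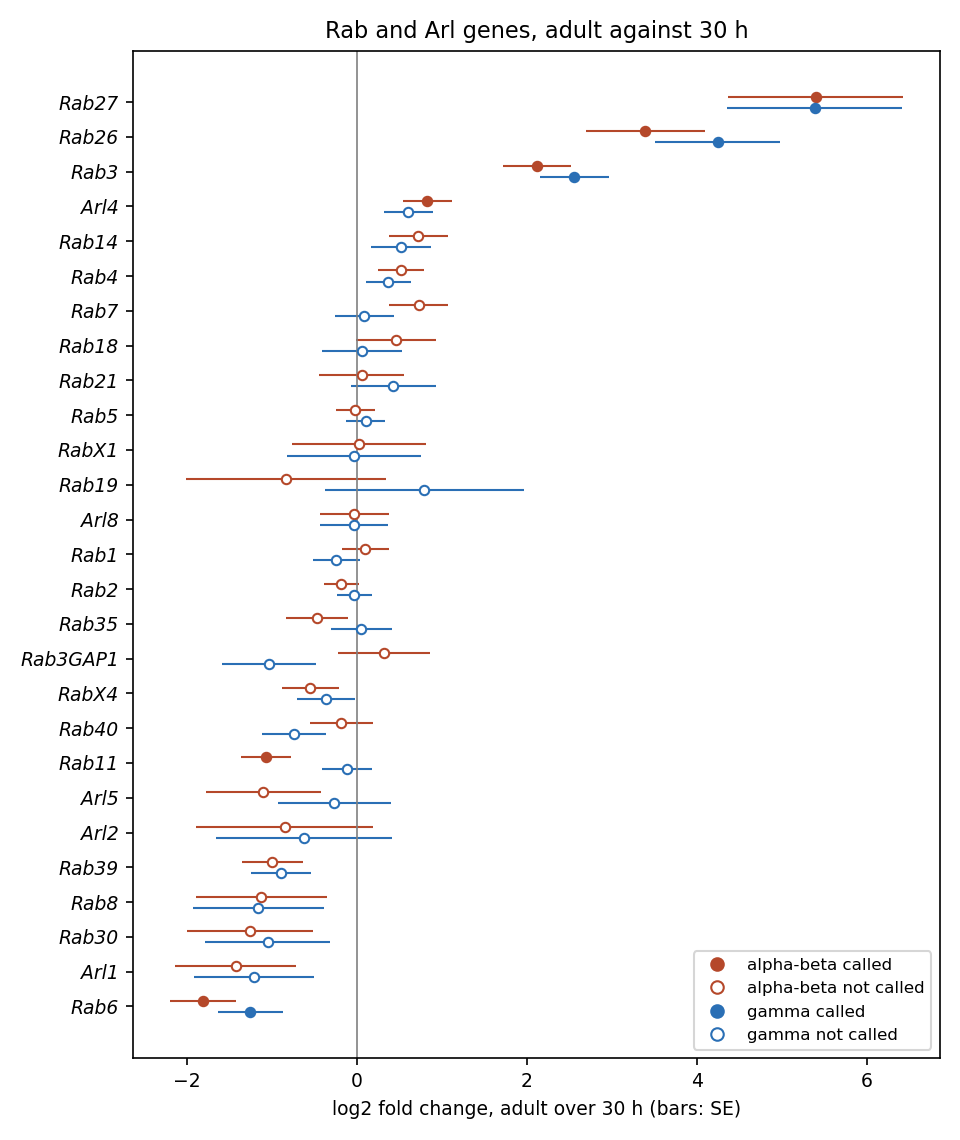
log2 fold change of adult over 30 h (horizontal axis) for the 27 tested members with SE up to 1.2 in both cell types; points are edgeR estimates, bars their SE, filled points adjusted p under 0.05. Rab27, Rab26 and Rab3 stand to the right in both cell types, from 2.12 to 5.40, and Rab6 to the left.

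An interaction term asked whether alpha-beta and gamma neurons change by different amounts between 30 h and the adult. edgeR called 0 of the 33 members, beside 0.665% of all genes, with 3 members at an unadjusted p under 0.05 (Rab9, Rab10, Rab11). limma-voom called 0 and DESeq2 called 3 (Rab9, Rab10, Rab23). The change in gamma minus the change in alpha-beta neurons was 0.43 for Rab3 (95% interval -0.66 to 1.52), 0.85 for Rab26 (-0.97 to 2.67) and -0.01 for Rab27 (-2.48 to 2.45) on the log2 scale. For Rab6 it was 0.55 (-0.52 to 1.63). For Rab11 it was 0.96 (0.13 to 1.78, adjusted p = 0.293), so the fall of Rab11 in alpha-beta neurons is not shown to be absent from gamma neurons.

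Between adult gamma and adult alpha-beta neurons 1 member was called, beside 3.6% of all genes. This was Rab9 (edgeR adjusted p = 0.0293), with 31.3 and 17.9 CPM in gamma replicates 2 and 5 and 0 counts in the other 8 adult libraries. The gamma mean of 9.84 CPM, 25.1-fold the level of 3 counts per alpha-beta library, rests on these 2 libraries. The call was lost without alpha-beta adult replicate 2 (adjusted p = 0.0574), 3 (0.0504), 4 (0.067) or 5 (0.0529), without gamma adult replicate 2 (0.0524), and in limma-voom (0.539). Without gamma adult replicate 5, Rab9 and Rab11 were called. With all libraries Rab11 was 0.81 higher in gamma neurons on the log2 scale (adjusted p = 0.104). Rab3 differed by 0.35 (95% interval -0.42 to 1.12), Rab26 by 0.23 (-1.05 to 1.52) and Rab27 by -0.71 (-2.43 to 1.01).

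Between 18 and 30 h none of these genes had a called trend. The slope, given as log2 change per 12 h, was called by edgeR for 0 members in alpha-beta neurons (0.208% of all genes; 1 member, Rab23, at an unadjusted p under 0.05) and 0 in gamma neurons (0.109% of all genes; 0 at an unadjusted p under 0.05). The difference of the slopes was called for 0 members and for 0% of all genes, with 1 member (Rab23) at an unadjusted p under 0.05. limma-voom made 0 calls in these 3 comparisons, and DESeq2 made 1, 0 and 1, each of them Rab23. Rab3 had a slope of 0.49 (95% interval -0.21 to 1.19) in alpha-beta and 0.07 (-0.65 to 0.78) in gamma neurons. For Rab6 the slopes were 0.01 (-0.67 to 0.70) and -0.07 (-0.77 to 0.63), and for Rab27 0.25 (-1.30 to 1.81) and -0.61 (-2.20 to 0.99).

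Pupal gamma and alpha-beta neurons were compared over the 5 stages together. Of the 33 members 2 were called, both higher in gamma neurons (Rab14 and Rab23), beside 6.27% of all genes. The median log2 fold change of the members was 0.06, beside -0.04 over all genes.

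Rab14 (FBgn0015791) ranged from 130 to 505 CPM with a median of 302.5 in the 25 pupal alpha-beta libraries, and from 254 to 1051 CPM with a median of 449 in the 23 gamma libraries. The ranges overlapped, but the gamma mean was above the alpha-beta mean at each stage, at 575 against 247 CPM at 18 h, 489.9 against 298 at 21 h, 444 against 293 at 24 h, 548 against 311 at 27 h and 580.4 against 361 at 30 h. The pooled log2 fold change was 0.81 (SE 0.16, 95% interval 0.49 to 1.13, edgeR adjusted p = 0.000618). Rab14 was higher in the gamma library in 21 of 22 pairs from the same set of library numbers, and the call was kept in each fit without 1 library. At single stages its difference was not called by edgeR (log2 fold change 1.22, adjusted p = 0.163 at 18 h).

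Rab23, which acts in planar polarity in the fly, had counts in 4 of the 25 alpha-beta and 10 of the 23 gamma pupal libraries, and in no adult library. Its highest level was 11.4 CPM in alpha-beta and 16.5 CPM in gamma neurons, and the median was 0 in both. The call (edgeR adjusted p = 0.0103) was lost without gamma 24 h replicate 4 (adjusted p = 1), the only gamma library of that stage with counts of Rab23.

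Rab32, the lightoid gene known for eye pigment granules, was called over the pupal stages by limma-voom but not by edgeR (pooled log2 fold change 2.21, edgeR adjusted p = 0.206). It was higher in the gamma library in 15 and lower in 5 of 22 pairs from the same set. Its 5 gamma libraries at 30 h had 112, 117, 94.9, 70.5 and 358 CPM, above the 5 alpha-beta libraries at 0, 0, 37.7, 0 and 7.36 CPM. Rab3GAP1 had a pooled log2 fold change of 0.69 (adjusted p = 0.0977), was higher in gamma in 18 of the 22 pairs, and was called by DESeq2, by limma-voom and with the library set as a factor. Rab2 had 0.20 (adjusted p = 0.311). At single stages edgeR called 0 of the 33 members at any of the 5 stages, with 1, 2, 1, 1 and 1 members at an unadjusted p under 0.05 and 0.457% of all genes called at 1 stage or more. DESeq2 called 2 (Rab14, Rab23) and limma-voom 2 (Rab23, Rab32).

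**Figure D4:**
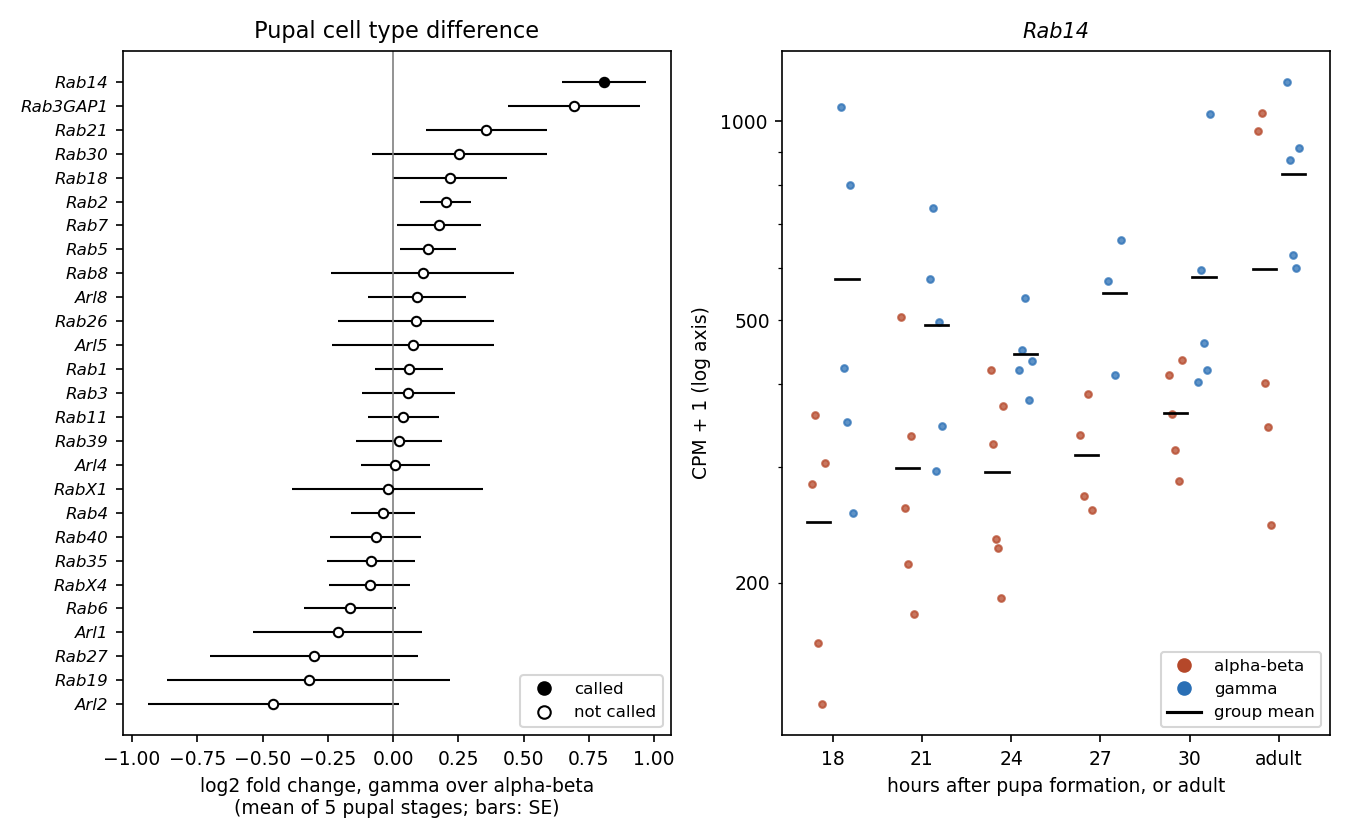
Left, log2 fold change of gamma over alpha-beta neurons as the mean of 5 pupal stages (horizontal axis). The 27 tested members with SE up to 0.6 are drawn, with SE bars and called members filled. Arl6, Rab9, Rab10, Rab23, Rab32 and RabX6 are left out by this limit, and of these Rab23 was called, at 4.73. Right, Rab14 as CPM + 1 per library on a log axis over the stages and adults, with black bars for group means of the CPM values. Rab14 has the highest estimate of those drawn, at 0.81, and Rab3GAP1 follows at 0.69.

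Genes that regulate or work with these GTPases were then counted by list. Of 34 tested regulators of Rab, Arf and Arl proteins, 1 was higher and 5 were lower in adult than in 30 h alpha-beta neurons, and 0 were higher and 2 lower in gamma neurons. These are 17.6% and 5.88% of the list, beside 12.5% and 10.2% of all genes. Gdi, which extracts Rabs from membranes, fell from 1855 ± 181 CPM to 896 ± 450 CPM (SD, n = 5 each; log2 fold change -1.05, edgeR adjusted p = 0.000571) in alpha-beta neurons. In gamma neurons Gdi went from 2060.4 ± 289.9 CPM to 1269 ± 213 CPM (SD, n = 5 each; -0.70, adjusted p = 0.0333). The Rab5 exchange factor spri (-2.94, adjusted p = 0.000244) and the Arf GTPase-activating protein Git (-3.03, adjusted p = 0.000315) also fell in alpha-beta neurons, and spri fell in gamma neurons (-1.68, adjusted p = 0.0444). The Rab35 GTPase-activating protein sky rose in alpha-beta neurons, from 9.35 ± 1.48 CPM to 80.2 ± 56.4 CPM (SD, n = 5 each; 3.10, adjusted p = 0.00289).

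Rim, the active zone protein that binds Rab3, went in alpha-beta neurons from 507 ± 107 CPM to 1429.6 ± 412 CPM (SD, n = 5 each; log2 fold change 1.49, edgeR adjusted p = 0.00017) and in gamma neurons from 418 ± 197 CPM to 1128 ± 463 CPM (SD, n = 5 each; 1.43, adjusted p = 0.000401). Rab3-GEF, the exchange factor of Rab3, was higher in adults than in the mean of the pupal stages in alpha-beta (1.59, adjusted p = 0.00281) and gamma neurons (1.54, adjusted p = 0.00553). Rph, the fly rabphilin, was lower in adult gamma neurons in the same comparison (-1.31, adjusted p = 0.0273). These 3 Rab3 partners were picked after their values were seen. Among 13 endosome and recycling effectors against 30 h, Rim was higher and Hrs, the ESCRT-0 subunit, lower in alpha-beta neurons (-2.57, adjusted p = 0.00233), and Rim was the 1 gene called in gamma neurons. These are 15.4% and 7.69% of the list, beside 12.5% and 10.2% of all genes.

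Of 7 COPI coat genes 0 were higher and 1 lower in adult alpha-beta neurons against 30 h (beta'COP, log2 fold change -1.66, edgeR adjusted p = 0.0198), and 0 were called in gamma neurons, where 1 had an unadjusted p under 0.05. These are 14.3% and 0% of the list, beside 12.5% and 10.2% of all genes. Of 8 COPII coat genes, Sar1 (-1.17, adjusted p = 0.00277) and Sec13 (-1.81, adjusted p = 0.00324) were lower in alpha-beta neurons and Sar1 in gamma neurons (-0.94, adjusted p = 0.0223), which are 25% and 12.5% of that list. Of 15 clathrin and adaptor genes 1 was higher in each cell type: lap, the fly AP180, in alpha-beta (1.51, adjusted p = 0.00726) and AP-2sigma in gamma neurons (1.26, adjusted p = 0.0376), or 6.67% of the list in each. Against the mean of the pupal stages 3 of the 15 were higher and 0 lower in alpha-beta, and 5 were higher and 1 lower in gamma neurons. That is 20% and 40% of the list called, beside 26.4% and 22.2% of all genes.

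Against 30 h edgeR called no gene of the retromer (7 tested), exocyst (8), HOPS and CORVET (7) or Golgi tether (18) lists. This held in both cell types, for which 12.5% (alpha-beta) and 10.2% (gamma) of all genes were called. At an unadjusted p under 0.05 these lists held 0, 1, 1 and 1 genes in alpha-beta and 0, 0, 0 and 1 in gamma neurons. Against the pupal mean Exo70 of the exocyst was lower in adult alpha-beta neurons (log2 fold change -2.32, edgeR adjusted p = 0.0496). Snx1 of the retromer list was lower in adult gamma neurons (-1.50, adjusted p = 0.0403). BicD, a Golgi tether gene, was higher there (1.13, adjusted p = 0.00655). These are 12.5%, 14.3% and 5.56% of their lists, and HOPS and CORVET had 0 called. Of all genes 26.4% (alpha-beta) and 22.2% (gamma) were called. Other settings were not run for these lists.

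**Figure D5:**
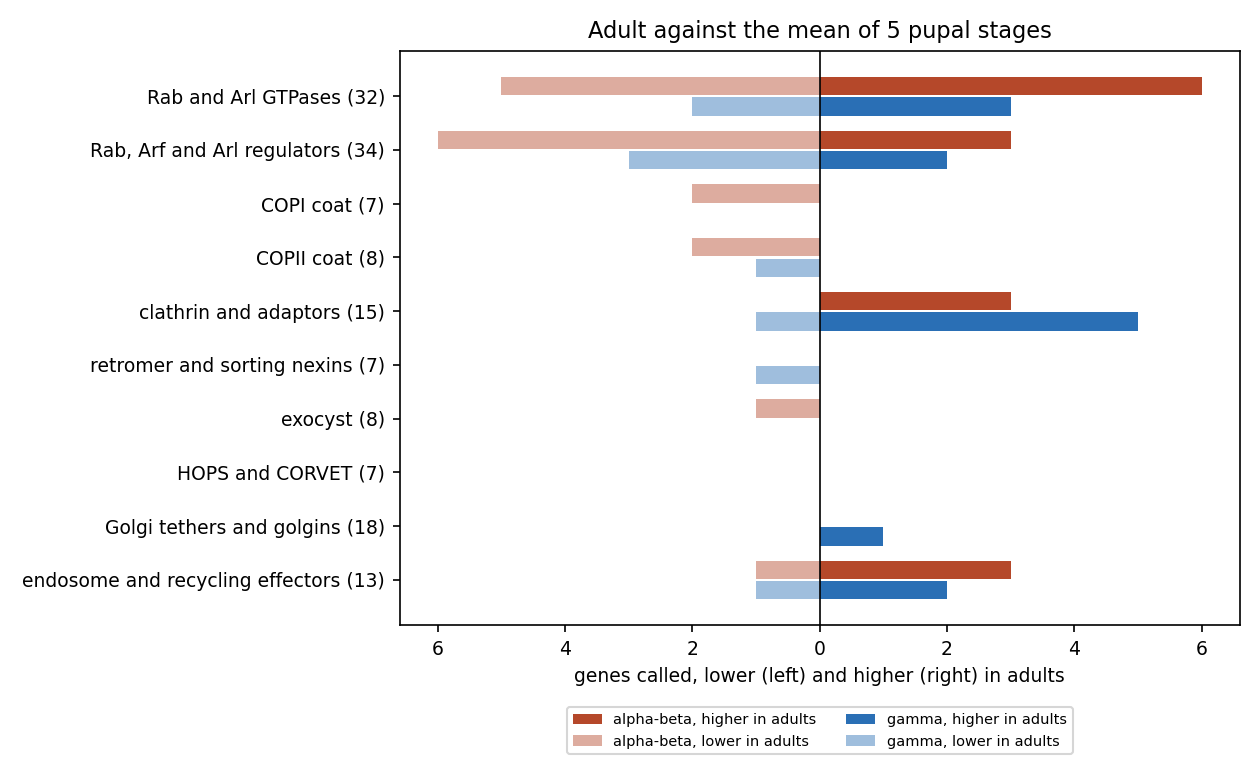
Number of genes called by edgeR in adults against the mean of 5 pupal stages (horizontal axis; lower to the left, higher to the right) for the Rab and Arl GTPases and 9 lists of genes that work with them, with the number tested in brackets. The Rab and Arl GTPases have 6 higher and 5 lower in alpha-beta and 3 higher and 2 lower in gamma neurons.

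The Arf GTPases that the naming rule leaves out were added after their symbols were seen. Arf1, which recruits COPI and clathrin adaptors at the Golgi, was lower in adult than in 30 h alpha-beta neurons (log2 fold change -0.66, SE 0.21, edgeR adjusted p = 0.0266), without overlap. In gamma neurons its difference was -0.44 (adjusted p = 0.156) against 30 h and -0.62 (adjusted p = 0.00532) against the pupal mean, where it was called. Arf4, Arf6 and Arfrp1 were not called in either cell type against 30 h.

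The authors' deposited table listed 10 members that had an adjusted p under 0.05 between 30 h and adult alpha-beta neurons, 6 higher at 30 h and 4 higher in adults, beside 20.3% of the 12453 genes in the authors' deposited table. The authors' deposited table had 6 such members in gamma neurons, 3 in each direction, beside 19.5% of all genes. Between the adult cell types the authors' deposited table had 2 (Rab9 and Rab10), both higher in gamma neurons, beside 12.6% of all genes.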

How the data were processed

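The deposited table gives raw counts per gene for 58 libraries, made by the authors and named as raw in the file headers. STAR is listed in the submitters' processing notes. Its version, the counting tool, strand setting, annotation and genome build are not given in the sources used here, so overlapping and antisense genes may share reads. The authors' log2 fold changes and adjusted p-values stand in the same deposited table, per the file headers, and were used only where named. Gene IDs were given by the annotation of Ensembl (a build that may differ from the authors'), which was also used for exon lengths and overlaps and for no coordinates.

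Libraries were grouped by the cell type and stage of the labels. Counts of 58 libraries in 12 groups were fitted together with edgeR 4.0.16 in R 4.3.3 (TMM normalization, quasi-likelihood F-test), after its filter on low counts (minimum 10 in a library, 15 in total), which left 10072 of 12453 genes. The common biological coefficient of variation was 1.34. A call is a Benjamini-Hochberg adjusted p under 0.05 over all genes tested. CPM used each library's total count over the genes tested, multiplied by its TMM normalization factor. Standard errors are the size of the log2 fold change over the root of the F statistic. Depth sets the lowest measurable level, from 0.111 to 0.693 CPM for 3 counts, which covers counting error only. No pair of libraries within a group agreed within sampling noise (114 pairs).

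The scripts were tested on simulated data. Alternatives were DESeq2 1.42.0, limma-voom (limma 3.58.1) with sample weights, RLE size factors, no filter and a stricter one (50 counts), a replicate block, the library set (12 consecutive numbers in the library names) as a factor, the compared groups alone, and leaving out each library. Named with full values were members called in at least 1 result and the 5 with the highest mean CPM. Of other genes at most 4 called per list were named, the smallest adjusted p first, except where stated. Members and lists were chosen with earlier results of these data known. One further gene list is not reported here.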

Additional observations from a re-analysis of the deposited data

Results flagged for a closer look

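Of 148 groups of 4 to 6 libraries, 12 had a library far from the rest, where chance gives about 5% of groups. The 12 cases are given as CPM with the range of the other libraries of the group in brackets.

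Gamma adult replicate 5 was the highest library for Rab10, at 28.7 (0.0637 to 0.609), and the lowest for Rab7, at 54 (358 to 409.6). It was also the lowest gamma adult library for Rab3, Rab6 and Rab11 and the highest for Rab27. Without it, 4 members were called against 30 h, with log2 fold changes of 2.77 for Rab3, 4.21 for Rab26, 5.13 for Rab27 and -0.96 for Rab6.

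Among the exocytic Rabs, alpha-beta adult replicate 1 had 769 for Rab26 (109 to 262). Alpha-beta 21 h replicate 4 had 91.2 for Rab27 (44.7 to 49.2), gamma 18 h replicate 3 had 6.36 for Rab27 (43.3 to 58.2), and gamma 24 h replicate 4 had 526 for Rab3 (255 to 318). Gamma 21 h replicate 1 had 277 for Arl1 (90 to 124).

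Rab23 had 5 such libraries, all with a high value over others at or near 0. They were alpha-beta 18 h replicate 3 at 1.13 (0 to 0), alpha-beta 21 h replicate 5 at 11.4 (0 to 2.62), gamma 21 h replicate 5 at 16.5 (0 to 2.49), gamma 24 h replicate 4 at 1.77 (0 to 0) and gamma 30 h replicate 2 at 3.55 (0 to 0.673).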

How the results depend on the processing

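No result reversed under the alternatives run. Member counts moved by more than 1.5 times in 19 cases and not in 347, and calls of single members were lost in 35 cases and kept in 907. DESeq2 called 3 members for the interaction, 8 in gamma adults against the pupal mean, 1 for the alpha-beta slope, 1 for the slope difference, 3 between adult cell types and 2 at single pupal stages. limma-voom called 4 for the pooled pupal difference, 0 between adult cell types and 2 at single stages. With the library set as a factor 8 were called in gamma adults against the pupal mean and 1 at single stages, and with the compared groups alone 0 between adult cell types. The cause was not tested. For the fits run here, shares of all genes called are given for the main edgeR fit only. Member counts under other settings, in all sections, have no such share beside them and cannot be set against the main shares.

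Leaving out each library gave 6 to 8 members for alpha-beta and 3 to 5 for gamma adults against 30 h, 11 to 13 and 5 to 7 against the pupal mean, 0 to 0 for the interaction, for both slopes, for their difference and for single stages, 1 to 3 for the pooled pupal difference and 0 to 2 between adult cell types.

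Correlations of same-numbered libraries ran from 0.0426 to 0.166 in alpha-beta and from 0.035 to 0.173 in gamma adults against 30 h. Between adult cell types they ran from -0.0214 to 0.0818, and between pupal cell types from -0.112 to 0.339. Libraries of different numbers were not compared, so these values cannot tell whether replicate numbers pair the libraries. With the replicate block 7 and 4 members were called against 30 h in alpha-beta and gamma neurons, 11 and 6 against the pupal mean, 2 for the pooled pupal difference, 1 between adult cell types and 0 in the rest. RLE scaling moved the median of all genes by at most 0.07 in log2. Genes at a few CPM, such as Rab9, Rab10, Rab23 and Arl6, came and went between replicates, so their calls rest on few libraries.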
